A study of Mus musculus with 8 samples.

Results

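The m6A peaks of normal mouse liver were examined in m6ARIP-seq libraries of Wtapflox/flox mice, in which *Wtap* is flanked by loxP sites and no Cre is present, so that the gene is intact. In m6ARIP-seq, fragmented mRNA is precipitated with an antibody to m6A, and the bound fragments (IP) are sequenced together with a portion of the unselected mRNA (input). The members are all rows of the authors' peak list for this genotype, 15635 peaks in 9020 genes, of 34820 peaks in the lists of both genotypes of the series. The mice were C57BL/6 by the labels (C57BL/6J in the study's methods), 8 weeks old and fed normal chow, and livers of 5 mice were pooled for a replicate. The 2 IP and 2 input libraries were already combined in the list, so no value has an SD or a replicate error, and no test was made. The list gives no reads, so the depth is unknown. A gene without a listed peak may be unmethylated, weakly expressed or absent from liver, and these cannot be told apart in a peak list.

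m6A, methylation of adenosine at its N6 position, is the most common internal modification of mRNA. A nuclear complex built around METTL3, METTL14 and WTAP places it while the transcript is made, mostly at the core sequence GGACT (with U for T in the RNA) or close relatives and often near the stop codon. Reader proteins such as YTHDF2 and YTHDC1 then act on the decay, export, splicing and translation of the marked RNA. The antibody also binds m6Am, a modified adenosine that can be the first transcribed base, so a peak at the start of a gene can come from either form.

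The sequences below illustrate the motif and the first base at gene starts, where a RefSeq start sequence (GRCm38.p6) could be read. The first set holds the 4 peaks of highest fold enrichment (IP over input) that had an edge within 200 nt of the gene start and whose gene carried GGACT in its first 50 bases, with the motif in capitals. GGACT was in the first 50 bases of 6.57% of genes with such a peak, against 6.18% of all protein-coding genes with a start sequence. *Smim26* (fold enrichment 13.3) is shown from chr2:144594065-144594094 on the plus strand, *Nup153* (12.3) from chr13:46727814-46727843 on the minus strand, *Men1* (12.3) from chr19:6334999-6335028 on the plus strand and *Sap30l* (10.8) from chr11:57801657-57801686 on the plus strand. The bases shown lie inside the peak in *Nup153* and *Sap30l*, while the peaks of *Smim26* and *Men1* begin downstream of them.
Smim26: aGGACTtcctcctctcctatggagccatgc
Nup153: cgccagcggcctGGACTgcggcagcgacgg
Men1: gccataggaggcgcgGGACTtcatttccca
Sap30l: gcccaggggctgccgcggGGACTcggggcg

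The second set comes from 26 genes that lead the gene lists described further on, or mark a cell type, and had a peak with an edge within 200 nt of a readable start. Of these 26, 12 begin with A and 12 with G. Over all protein-coding genes with a start sequence, 42.4% begin with A and 34.8% with G. The 8 whose start peak had the lowest p are shown by their first 30 bases, with the first transcribed base in capitals. *Fga* is shown from chr3:83026153-83026182 (plus strand), *Nfe2l1* from chr11:96829939-96829968 (minus), *Ugt2b35* from chr5:87000860-87000889 (plus), *Slc10a1* from chr12:80968676-80968705 (minus), *Ugt2b34* from chr5:86906908-86906937 (minus), *G6pc* from chr11:101367716-101367745 (plus), *Ehhadh* from chr16:21787805-21787834 (minus) and *Hand2* from chr8:57320983-57321012 (plus). Of the 8, 4 begin with A. The peaks of *Nfe2l1*, *Slc10a1* and *Hand2* begin downstream of the bases shown.
Fga: Agtcagtcctccttcgcttcagctccagtt
Nfe2l1: Gagtgcagtggaaggagggggcggggaggg
Ugt2b35: Acacagttaacagaagccctttgacttcca
Slc10a1: Cacagctggagtttctcgtgagctgggctt
Ugt2b34: Gcctgaagttaaccaagatgcctgtgaaaa
G6pc: Agcagagggatcaaggccaaccgggctgga
Ehhadh: Gaaaaggagccccgggctgccccagacatc
Hand2: Agctgtacatggagatcttgctgggaaaat

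Most methylated genes carried few peaks, and the typical peak was short and moderately enriched. Of the 9020 genes, 4995 (55.4%) had 1 peak, 2459 (27.3%) had 2, and 1566 (17.4%) had 3 or more. Only 99 genes (1.10%, 95% Wilson interval 0.902 to 1.33, which covers counting error only) had 6 or more. Because the multi-peak genes hold many peaks each, 68.1% of all peaks lay in genes with 2 or more. The median fold enrichment of a peak was 5.51, with quartiles of 3.39 and 9.70 and a range of 1.17 to 173. A peak covered a median of 269 exonic nt (range 85 to 2789), and the peaks of a gene together covered a median of 421 nt and at most 6636 nt. In all, 5130.67 kb of exonic sequence lay under peaks. Some listed peaks overlap another peak of the same gene (233 of them), and joining overlaps on a strand left 15304 regions, so both counts are given where they differ. Of these regions, 205 join peaks of different genes, so 1 stretch can count for more than 1 gene.

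Genes with more peaks did not have a higher median enrichment. The median fold enrichment over peaks was 5.64 in genes with 1 peak, 5.38 in genes with 2, 5.49 with 3, 5.77 with 4, 5.39 with 5 and 5.52 with 6 or more. The highest peak of a gene had a median of 5.64 with 1 peak and 12.6 with 6 or more. The highest of several values rises with their number, even where the median does not. This limit also applies where gene lists are compared by their highest fold enrichments below. Exonic length grew with number, from a median of 241 nt per gene to 2161 nt. The genomic span of the gene grew with it, from a median of 22259 nt in genes with 1 peak to 57406 nt in genes with 6 or more.

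Peaks were concentrated at the end of the gene. Of the 14165 peaks that could be placed on the span of their RefSeq gene (start to end on the genome, introns included), 41.8% had their midpoint in the last of 10 equal parts and 13.6% in the first, and each of the other 8 parts held between 3.58% and 13.7%. The median fold enrichment was lowest in the first part, at 4.09, and highest in the eighth, at 6.40, with 5.70 in the last. The peaks nearest the end were thus the most numerous and not the strongest. In the 2260 genes with exactly 2 placed peaks, the peak closer to the 3´ end was the higher in 51.3%, and the higher peak exceeded the lower by a median of 1.73-fold. In 39% of these genes the pair differed by over 2-fold. The Spearman correlation between the fold enrichments of the pair was 0.36 across these genes, which share the same RNA pools and are not independent replicates. Spans include introns and do not mark the stop codon, so the place of a peak relative to the stop codon was not measured.

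**Figure D1:**
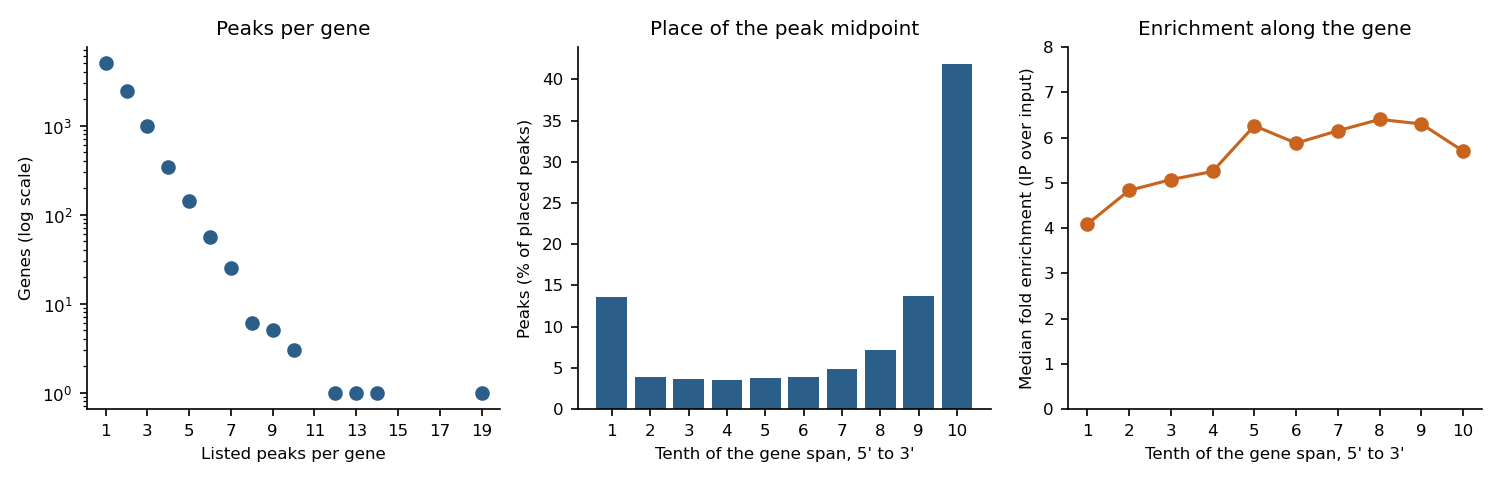
Left, number of genes (log scale) by listed peaks per gene, in Wtapflox/flox liver. Middle, percent of the 14165 placed peaks whose midpoint falls in each of 10 equal parts of the gene span. Right, median fold enrichment (IP over input) of those peaks. The last part holds 41.8% of peaks, while the median fold enrichment is highest, 6.40, in the eighth.

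Several of the genes with the most peaks encode very large proteins of chromatin, RNA processing and the cell periphery. *Ahnak* (ENSMUSG00000069833), which encodes a giant scaffold protein of the cell membrane, had 19 peaks on chromosome 19 from 9002864 to 9018231, plus strand. They covered 3736 exonic nt, with fold enrichments of 3.62 to 51.8 and a median of 8.34. All 19 were single-block peaks between 15.6% and 32.9% of its RefSeq span. *Spen*, a corepressor that Xist recruits, had 13 peaks over 4509 nt, with fold enrichments of 2.66 to 23.3. Its strongest peaks stood at both ends of the gene, with fold enrichments of 16.4 and 23.3 for the first and second peak and 13.2 for the last, while the 10 peaks between them lay between 2.66 and 8.52.

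*Son*, a nuclear speckle protein needed for splicing, had 12 peaks over 3966 nt, with fold enrichments of 1.61 to 16.2 and a median of 3. *Kmt2d*, the methyltransferase of H3K4 at enhancers, had 10 peaks over 4326 nt, between 2.91 and 9.70. *Bptf*, the reader subunit of the NURF remodelling complex, had 10 peaks over 2886 nt. Its second peak, 260 nt into the gene, had a fold enrichment of 53.6, against 3 to 7.58 for the other 9. *Zfp646*, a zinc finger gene, had 9 peaks over 3149 nt with an even range of 2.83 to 8.78. *Plec*, which encodes the cytolinker plectin, had 9 peaks over 6636 nt, the greatest exonic length of all genes, with the longest of them 2310 nt at a fold enrichment of 9.53.

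Overlapping entries account for part of the count in 3 of the 10 genes. *Maf*, a basic leucine zipper transcription factor, had 9 listed peaks in 6 separate regions, with fold enrichments of 3.54 to 26.3. The peak of 26.3 lay beyond the RefSeq span of *Maf*, where the highest value was 15.9. ENSMUSG00000063286, an unnamed gene inside the span of Gm8995 on chromosome 7, had 14 listed peaks in 10 regions and the highest median of the 10 genes, 16.5. ENSMUSG00000092274, inside the span of *Neat1*, had 10 listed peaks in 5 regions and the lowest median, 2.34.

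**Figure D2:**
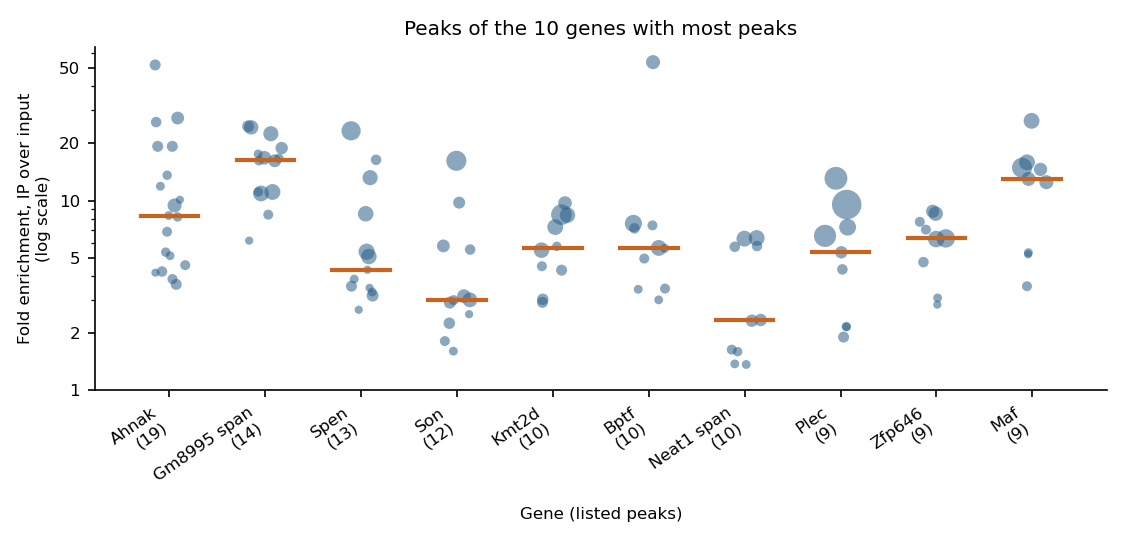
Fold enrichment (IP over input, log scale) of every listed peak in the 10 genes with most peaks. Each point is 1 peak, its area grows with exonic length, and the orange bar is the gene's median. Medians run from 2.34 in the *Neat1* span to 16.5 in the Gm8995 span, and single peaks of *Ahnak* (51.8) and *Bptf* (53.6) stand above the rest.

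Ranked by methylated length, a liver secretory gene joins the list. *Apob*, the structural protein of very low density lipoprotein, had 8 peaks over 6300 exonic nt, with midpoints from 74.4% of its span onwards and, from 5´ to 3´, fold enrichments of 7.09, 2.32, 10, 4.46, 1.92, 4.32, 4.14 and 2. *Ankrd11*, a chromatin regulator with ankyrin repeats, covered 5224 nt in 7 peaks and held the longest peak of the list, 2789 nt at a fold enrichment of 7.17. *Helz2*, a helicase that acts as a nuclear receptor coactivator, covered 4405 nt in 6 peaks of 2.17 to 7.16.

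The strongest peaks by fold enrichment lay in other genes. The highest value, 173, belonged to ENSMUSG00000060149, an unnamed gene inside the span of BC002059 on chromosome 17 (16973354 to 16973889). *Vangl1*, a planar cell polarity protein, followed with 138 on chromosome 3 (102157864 to 102158493). *Prkch*, a protein kinase C isoform, had 119, *Snx20*, a sorting nexin of leukocytes, had 100, and *B3gnt3* and *Exoc3l2* each had 97.5. *Gpr157* had 95.7, *Filip1l* 88.7, *Ccbe1* 88.7 and *Ccr2*, the receptor for CCL2 on monocytes, 86.1. Of these 10 genes, 5 had no second peak. The peaks of *Prkch*, *Filip1l* and *Ccbe1* lay in the last 2% of the gene span.

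High fold enrichment went with modest p-values. The −log10 p of *Vangl1* was 41.1 and that of *Ccr2* was 25.1, against a median of 23.1 over all peaks. The 100 peaks of highest fold enrichment had a median −log10 p of 21.4 and a median fold enrichment of 56.9. The 100 peaks of lowest p had a median −log10 p of 2400 and a median fold enrichment of 6.39, and no peak was in both sets. Over all 15635 peaks, the Spearman correlation of fold enrichment with −log10 p was 0.18, and that of exonic length with −log10 p was 0.74. These are descriptions over peaks that share libraries and depth.

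The fold enrichments of the strong peaks also fell on repeated values. A fold enrichment of 26.3 together with a −log10 p of 7.03 occurred for 25 peaks in 24 genes, and 28.1 with 7.55 occurred for 24 peaks in 24 genes. Of the 988 peaks with a fold enrichment of 20 to 40, 430 (43.5%) shared both values exactly with another peak, against 3.55% of the peaks under 2 and 11.3% of those from 2 to 5. The median −log10 p in that range was 11, lower than the 43.6 of peaks from 10 to 20. Reads per peak are not in the list, and their part in these steps was not tested.

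**Figure D3:**
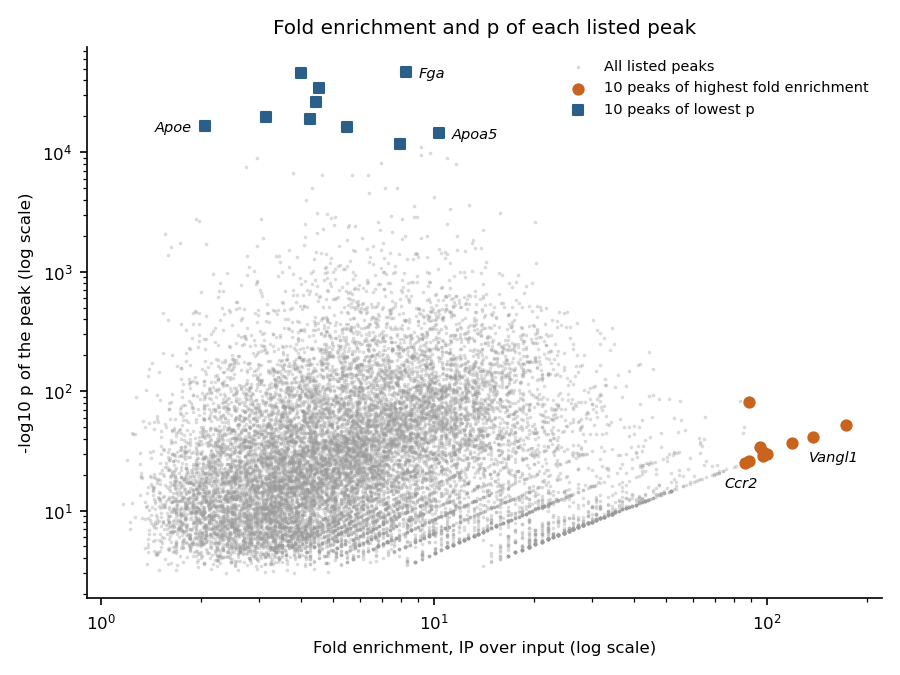
Each grey point is 1 of the 15635 peaks, with fold enrichment on the x axis and −log10 p on the y axis, both on log scales. Orange marks the 10 peaks of highest fold enrichment and blue squares the 10 of lowest p. The orange peaks (86.1 to 173) have −log10 p between 25.1 and 81.1, and the blue peaks between 11700 and 46800.

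The peaks of lowest p belonged to the abundant RNAs of the hepatocyte and to a mitochondrial RNA. *Fga*, the fibrinogen alpha chain, held the lowest p, with a −log10 p of 46800 and a fold enrichment of 8.26 over 1073 nt in an inner part of the gene. *Apoa1*, the main protein of high density lipoprotein, followed with 45800 and 4, and *Serpina3k*, a secreted serpin, with 34400 and 4.53. *Hp*, haptoglobin, had 18800 and 4.27, *Apoe* had 16600 and 2.06, *Apoa5* had 14500 and 10.4, and *Rnase4* had 11700 and 7.92. The fold enrichments of these peaks were thus ordinary for the list, although their p-values were extreme. *Serpina3k* has near-identical neighbours in its gene family, so its reads may be shared with them.

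Liver gene classes were then compared with all protein-coding genes. Of 21900 protein-coding RefSeq genes, 8018 had a listed peak, a background of 36.6%, and 18.8% of those had 3 or more. Of 31 gene lists, not counting cell type markers, noncoding RNAs and classes foreign to liver, 26 had a larger share of members with a peak than the background and 5 a smaller share. Among the 26, the Wilson intervals of the phase II list (31.8 to 53.9) and the aminoacyl-tRNA synthetase list (34.2 to 74.2) include the background. Many of these lists hold genes that liver expresses, while the background counts genes that are silent there. The order changed with the strength of the peak. With only peaks of fold enrichment 5 or more, the background was 24.4%, 17 lists lay above it and 14 below, and 9 lists crossed from above to below. Those 9 were the apolipoproteins, cholesterol, complement and coagulation, aminoacyl-tRNA synthetase, fatty acid oxidation, glucose, phase II, proteasome and urea cycle lists.

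**Figure D4:**
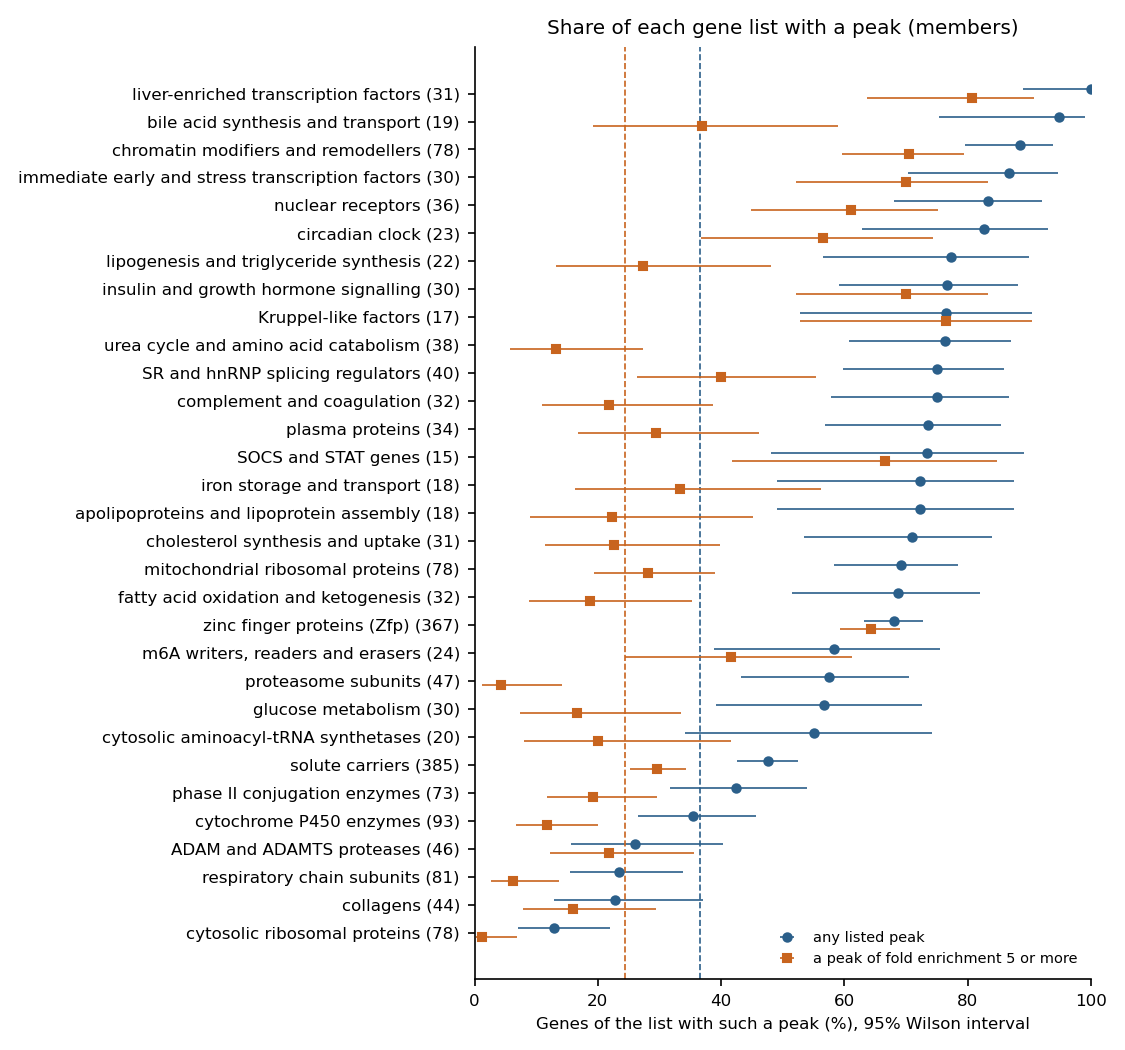
Percent of the genes of each list with any listed peak (blue) and with a peak of fold enrichment 5 or more (orange), with 95% Wilson intervals and the number of members in brackets. The dashed lines are all protein-coding genes (36.6% and 24.4%). Regulatory lists such as the liver-enriched transcription factors stay high in both, and most metabolic lists, such as the urea cycle (76.3% and 13.2%), do not.

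The liver-enriched transcription factors of the list all carried peaks. Of the 31 liver-enriched transcription factors 31 had a peak, 16 of them (51.6%) had 3 or more, and 25 had a peak of fold enrichment 5 or more. The median of their highest fold enrichments was 7.68, against 7.07 over all genes with a peak. They had 2.61 peaks per gene, against 1.79 over protein-coding genes with a peak. *Onecut2* had 6 peaks with fold enrichments of 5.40 to 11.6, *Nfix* had 4 peaks with 45.7, 3.15, 8.48 and 2.38 from 5´ to 3´, and *Nr2f2* had 4 peaks reaching 13.4. *Hnf4a*, the master regulator of hepatocyte identity, had 3 weaker peaks of 5.12, 3.79 and 1.48.

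Most genes of other regulator lists also had peaks. Of 36 nuclear receptors, 30 had a peak (83.3%), led by *Thrb*, the thyroid hormone receptor beta, with 5 peaks of 3.58 to 11, and by *Ppara*, the fatty acid sensor, with 4 peaks of 2.32 to 13.1, while *Rarg*, *Rxrg* and *Vdr* had none. Of 23 clock genes, 19 had a peak, among them *Hlf* with 4 and *Bhlhe40* with 3 peaks reaching 11, while *Arntl*, *Npas2* and *Cry1* had none. Of 30 immediate early and stress factors, 26 had a peak, with a median highest fold enrichment of 10.2, and *Jun* had 4 peaks of 3.12, 9.32, 3.49 and 18.6. *Fos*, *Fosb* and *Egr2* had no listed peak. Among 17 Kruppel-like factors 13 had a peak, and *Klf15*, a fasting-induced regulator of amino acid use, had 5 peaks of 1.45 to 5.60.

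Genes of insulin and growth hormone signalling had a median highest fold enrichment of 9.62, and 23 of 30 had a peak. The adaptor genes *Irs1* and *Irs2* led the list with 7 peaks each. The peaks of *Irs1* had fold enrichments of 4.8, 2.88, 8.16, 3.42, 8, 12 and 13.2 from 5´ to 3´ over 1747 nt. Those of *Irs2* had 6.63, 4.99, 13, 4, 7.07, 12.5 and 11 over 2763 nt. In both genes the largest values thus include the last peaks. *Pdpk1*, *Tsc2* and *Igfbp1* had no peak. Of 15 SOCS and STAT genes, 11 had a peak with a median highest fold enrichment of 11.2.

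Chromatin and zinc finger genes were rich in peaks per gene and in peaks of high fold enrichment. Of 78 chromatin modifiers and remodellers 69 had a peak (88.5%), with 3.39 peaks per gene that had any, and 59.4% of them had 3 or more against the background of 18.8%. Of 367 Zfp genes 250 had a peak (68.1%), with a median highest fold enrichment of 13.3, and 64.3% of all members had a peak of 5 or more. The median −log10 p per peak was 12.9 in the Zfp list and 24.2 in the chromatin list, against 24.1 over all protein-coding genes. *Atrx* had 7 peaks reaching 22.8 and *Zfp62* had 7 reaching 19.8. *Zfp865* had 8 listed peaks reaching 14.3, of which those of 5.03 and 10.2 lay outside its span and inside that of *Zfp784*. The median genomic span was 71951 nt for the chromatin list and 18193 nt for the Zfp list, against 17146 nt for all protein-coding genes. The part of gene length in these counts was not tested. Splicing regulators had a peak in 30 of 40 genes, and *Srrm2* had 9 peaks, all between 1.64 and 3.73.

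The m6A machinery itself was methylated in part. Of 24 writers, readers and erasers 14 had a peak, and 6 of these had 3 or more. *Virma*, the largest writer subunit, had 5 peaks of 5.12, 5.48, 3.34, 6.83 and 25.5 from 5´ to 3´, and *Zc3h13* had 5 of 3.07 to 8.55. *Wtap* had 3 peaks of 8.78, 20.7 and 8.06, and *Rbm15* and *Rbm15b* reached 14 and 13.9. Among readers, *Ythdc1* had 4 peaks reaching 12, *Ythdf2* had 2 reaching 10.7 and *Ythdf3* had 2 reaching 9.22. The eraser *Alkbh5* had 2 peaks reaching 3.26. No peak was listed for the catalytic pair *Mettl3* and *Mettl14*, nor for the eraser *Fto*.

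Metabolic genes of the hepatocyte often had a peak, and the median highest fold enrichment of these lists lay below the 7.07 of all genes with a peak. In bile acid synthesis and transport 18 of 19 genes had one, all but *Cyp27a1*, with a median highest fold enrichment of 3.66. Still, 7 of the 19 (36.8%) had a peak of 5 or more, against 24.4% of all protein-coding genes. The lipogenesis (27.3%) and plasma protein (29.4%) lists also lay above that background. The fatty acid oxidation, cholesterol, glucose, urea cycle, apolipoprotein, and complement and coagulation lists lay below it. *Cyp7a1*, the rate-limiting enzyme of bile acid synthesis, had 3 peaks of 4.59, 7.18 and 1.72. *Slc10a1*, the bile acid importer, had 3 of 2.06, 2.42 and 11.7, and *Abcg8* had 3 of 3.34, 8.37 and 2.26. The strongest peak reached the 3´ end of the gene in *Slc10a1*, and ended 1259 nt before it in *Abcg8* and 2355 nt before it in *Cyp7a1*.

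Lipid and glucose genes were alike in this. Of 22 genes of lipogenesis and triglyceride synthesis 17 had a peak (77.3%), with a median highest fold enrichment of 2.82, and 50% had a peak of fold enrichment 2 or more. The range was wide. *Acaca*, the acetyl-CoA carboxylase that commits carbon to fatty acids, had 21.1, 4.74 and 4.21 in 3 peaks at its 3´ end, and *Elovl6* had 5 peaks of 2.57 to 7.52. *Acly*, *Me1* and *Gpam* had none. Of 32 genes of fatty acid oxidation and ketogenesis 22 had a peak, with *Ehhadh* at 9.23, 1.42, 2.90 and 1.77 in 4 peaks and *Acsl1* at 7.15, 1.88 and 2.96 in 3. Of 31 cholesterol genes 22 had a peak, with *Abca1*, the cholesterol exporter, at 13.4 and 4 in a pair of peaks. Of 30 genes of glucose metabolism 17 had a peak, with *G6pc*, the last enzyme of glucose output, at 3.54, 3.50 and 2.71, and none in *Pfkl*, *Fbp1* and *Gys2*.

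Secreted and nitrogen-handling genes were similar. Plasma proteins had a peak in 25 of 34 genes, with a median highest fold enrichment of 4.27 and a median −log10 p of 237 per peak, against 24.1 over all protein-coding genes. *Serpinc1*, antithrombin, had 5 listed peaks of 8.03, 4.79, 2.44, 3.14 and 4.26, the last of them outside its span and inside that of *Zbtb37*. *Fga* had 3 of 4.07, 8.26 and 4.29, and *Kng1* had 3 reaching 7.06. *Alb*, albumin, had a single peak of 1.63 over 179 nt at its start, and *Ttr*, *Trf* and *Hpx* had none. Complement and coagulation genes had a peak in 24 of 32, led by *Masp1* with 5 and *F5* with 4. Urea cycle and amino acid genes had a peak in 29 of 38, with a median highest fold enrichment of 3.11, led by *Nags*, which makes the activator of the urea cycle, with 3 peaks of 5.17, 6.59 and 7.65. *Cps1*, *Ass1* and *Glud1*, enzymes of the same list, had no listed peak. Apolipoproteins had a peak in 13 of 18 genes and none in *Apoc2*, *Apoc3* and *Apoh*.

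Genes of the cytosolic ribosome and the respiratory chain were poor in peaks. Only 10 of 78 cytosolic ribosomal protein genes had a peak, 12.8% (95% Wilson interval 7.1 to 22) against the background of 36.6%, and 9 of the 10 had no second peak. The median highest fold enrichment was 2.80. The exception was *Rpl18*, with 6.15 and 43, both on spans that it shares with *Sphk2*. *Rpl29* had 4.09 and *Rpl34* had 3.95. Nuclear genes of the respiratory chain had a peak in 19 of 81, 23.5% (15.6 to 33.8), at a median of 3.30. *Ndufb7* had 5.71 at its start and 1.79 at its end. *Ndufv3* had 10 and 2.11. *Atp5a1*, *Atp5b* and *Atp5c1* had none. These genes are short, with median spans of 3152 nt and 7177 nt against 17146 nt. Many ribosomal protein genes also have near-identical pseudogene copies, and how such reads were counted is not given in the sources used here. Neither point was tested.

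Not every list of short or housekeeping genes was poor. Mitochondrial ribosomal proteins, with a median span of 7691 nt, had a peak in 54 of 78 genes (69.2%), although none had 3 or more. Proteasome subunits had a peak in 27 of 47, of which only 2 reached a fold enrichment of 5. The other lists under the background had intervals that include it. They were the collagens (10 of 44, 22.7%, 95% Wilson interval 12.8 to 37), the ADAM and ADAMTS proteases (12 of 46, 26.1%, 15.6 to 40.3) and the cytochrome P450 enzymes (33 of 93, 35.5%, 26.5 to 45.6). Of the 10 collagen genes with a peak 7 reached a fold enrichment of 5, and the median of their highest values was 15.8. *Col5a1* reached 34.3, while *Col18a1*, the collagen gene with most peaks, had 4 of 2.01, 3.71, 1.95 and 1.51. P450 genes had a median of 3.05, and 11 of the 33 with a peak reached 5. *Cyp1a1*, which metabolises aryl hydrocarbons, had 27.2 and 12.5. Olfactory receptors, which liver does not use, had a peak in 2 of 1110 genes and keratins in 1 of 49, *Krt18*, the keratin of hepatocytes, at 1.94.

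The fold enrichment of listed peaks also differed between markers of the liver's cell types. Hepatocyte markers had a peak in 8 of 12 genes, with a median highest fold enrichment of 3.10 and a median −log10 p of 958. Endothelial markers had one in 9 of 12 at 12.9 and 36.4, and stellate cell and fibroblast markers in 7 of 12 at 21.1 and 57.3. The highest values among the minor cell types were 30.1 for *Ptprb* and 20.5 for *Kdr* in endothelium, 26.5 for *Lrat* and 25.1 for *Pdgfrb* in stellate cells, 30 for *Sox9* in cholangiocytes and 20.1 for *Clec4f* in Kupffer cells. Kupffer cell and leukocyte markers had a peak in 6 of 16 genes (37.5%), at a median highest fold enrichment of 5.51. In that median *Csf1r* counts with 6.23, a peak outside its span and inside that of *Hmgxb3*. Its peak within the span had 2.72. Cholangiocyte markers had one in 3 of 9 (33.3%), at 16.2. Over all protein-coding genes the share with a peak was 36.6%, and the median was 7.07 in those with a peak. *Stab1*, *Stab2*, *Adgre1*, *Cd68*, *Krt7* and *Krt19* had none. In whole liver the level of an RNA within a cell type and the number of such cells cannot be told apart. Only called peaks are listed, so fold enrichments too low to be called are missing from these medians. The lowest gene maximum was 1.59 among hepatocyte markers and 6.59 among stellate cell and fibroblast markers. Whether calling leaves out more low values where an RNA is scarce was not tested.

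The place of the peaks also differed between the lists. Over protein-coding genes, 10.6% of placed peaks had an edge within 200 nt of the gene start. The share was 59.1% (13 of 22 peaks) for respiratory chain genes, 46.9% (15 of 32) for proteasome subunits, 42.9% (18 of 42) for urea cycle and amino acid genes, 35.4% (17 of 48) for phase II enzymes and 30.2% (13 of 43) for plasma proteins. It was 5.19% (12 of 231) for chromatin genes and 1.60% (9 of 562) for Zfp genes. Among genes with a span of at least 5000 nt, a restriction added after the values were seen, the shares were 66.7%, 42.3%, 43.2%, 31.1% and 27.3%, against 5.19%, 1.49% and 9.59% over all such genes. For apolipoproteins the share of 19.2% came only from genes under that length, with 0 of 14 peaks in the longer ones.

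Lists with many start peaks had weak peaks. Over the 31 lists, the Spearman correlation of the share near the start with the median highest fold enrichment was −0.78, and that of the median highest fold enrichment with the median −log10 p was −0.44. Lists share genes and libraries, so this is a description only. Start peaks shown in the sequences above had fold enrichments of 4.07 for *Fga*, 8.44 for *Nfe2l1*, 4.67 for *Ugt2b35*, 2.06 for *Slc10a1*, 2.49 for *Ugt2b34*, 3.54 for *G6pc*, 9.23 for *Ehhadh* and 21.9 for *Hand2*.

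**Figure D5:**
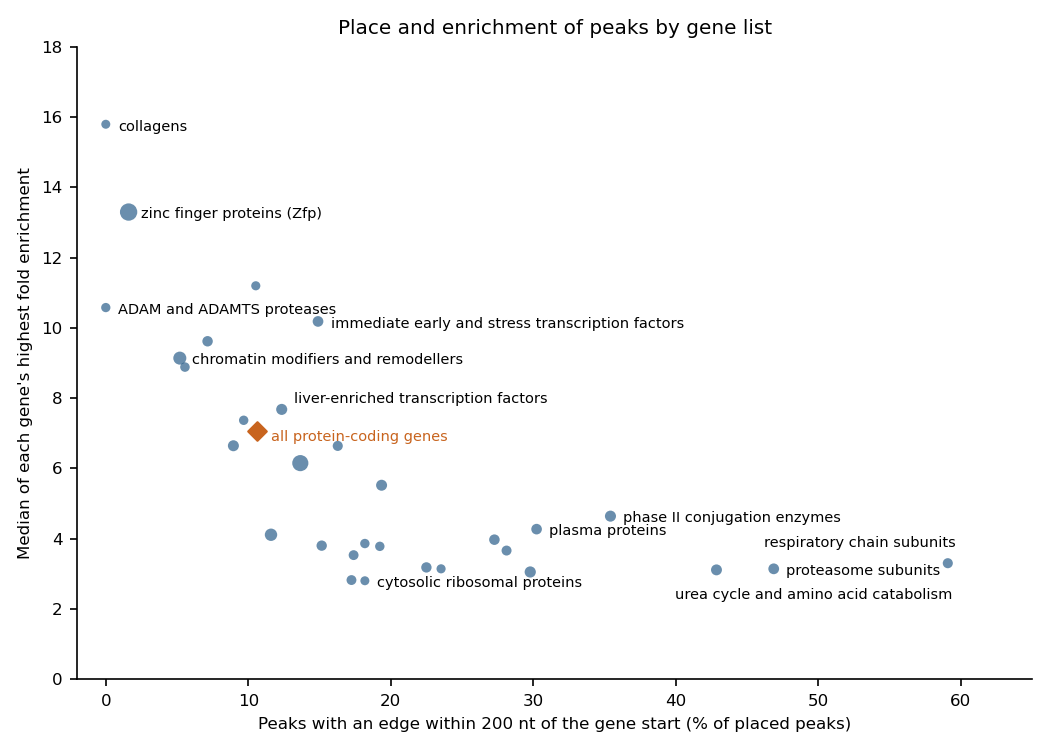
Each blue point is 1 of 31 gene lists, with the percent of its placed peaks within 200 nt of the gene start on the x axis and the median of its genes' highest fold enrichments on the y axis. Point area grows with the number of genes with a peak, and the orange diamond is all protein-coding genes (10.6% and 7.07). Respiratory chain genes sit at 59.1% and 3.30, Zfp genes at 1.60% and 13.3.

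The motif was about as frequent at the starts of genes with and without a start peak. GGACT, searched on the transcribed strand in the first 50 bases, was present in 6.57% of 867 genes with a start peak, 5.56% of 2538 genes with peaks elsewhere only, 6.35% of 7178 genes without a peak and 6.18% of all 10583 genes with a start sequence. The shorter GGAC, which contains every GGACT match, gave 18.5%, 20.1%, 18.9% and 19.2%. The first base was A in 33.3% of genes with a start peak, 27.7% of genes with peaks elsewhere and 48.6% of genes without a peak, with 42.4% over all. Genes with a start peak thus began with A more often than the other genes with peaks, and genes without a peak did so most often. RefSeq starts may not be the starts used in liver.

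Peaks also lay on long noncoding RNAs and on mitochondrial mRNAs. Of 10 long noncoding RNAs, 3 had listed peaks inside their span. *Malat1*, a nuclear speckle RNA, had 5 listed peaks in 3 regions, with fold enrichments of 2.04 to 8.67, *Neat1*, the scaffold of paraspeckles, reached 6.35, and *Norad*, a decoy for Pumilio proteins, had 2 peaks of 11.1 and 6.73. The peaks of *Malat1* and *Norad* lay towards the 5´ part of each RNA. The mitochondrial genome had 7 peaks in 4 genes of complex I. *mt-Nd2* had 5.50 and 4.44, *mt-Nd5* had 6.94 and 1.98, *mt-Nd4* had 2.95 and 1.94, and *mt-Nd6*, on the other strand, had 2.74 in a peak that overlaps the second peak of *mt-Nd5*, and whether the libraries keep strand is not given in the sources used here. Of 1005 miRNA hairpins in RefSeq, 14 shared a base with a peak on their strand.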

How the data were processed

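m6ARIP-seq data of whole liver from Wtapflox/flox mice (2 IP and 2 input libraries) were used. The authors trimmed 150 bp paired-end reads with fastp 0.19.11, aligned them with BWA 0.7.12 to GRCm38 (Ensembl annotation), called peaks with exomePeak and deposited 1 combined list. How the replicates were combined and the libraries scaled is not given in the sources used here. Fold enrichment, as deposited by the authors, is the ratio of IP to input on a linear scale. The p-values and false discovery rates the authors deposited are log10 scores, used as −log10 p. The deposited comparison of the genotypes holds the authors' own fold changes and was not used.

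Python 3.11.15 (numpy 2.4.6, pandas 2.3.3) served to count peaks and the union of their exonic blocks, and scipy 1.17.1 gave 95% Wilson intervals. Genes were matched to RefSeq (GRCm38.p6) by symbol or by an unambiguous synonym: 14388 of 15635 peaks matched, and 14165 overlapped the gene span. The counts, lengths and distances were tested on simulated data, in which 2000 of 2000 genes were recovered for each.

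The members, the 39 gene lists and the rules for naming were chosen with earlier results of these data known. Named were the 10 peaks of highest fold enrichment, the 10 genes with most peaks, the 5 of greatest exonic length and, in each list, the 3 genes with most peaks and up to 3 without a peak in list order, and any member of the m6A machinery and marker lists. Some genes that this rule names are not reported here. The genes of the 10 lowest p-values, the mitochondrial genes and the genes shown by sequence were chosen after their values were seen. Protein lengths and the GGACT motif inside peaks need sequences that were not used here. Alternatives were other thresholds, merging of overlapping peaks, matching by symbol and other windows at the gene start.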

Additional observations from a re-analysis of the deposited data

How the results depend on the processing

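No paired analysis was possible because the libraries are combined in the list and no test was made, and for the same reason no replicate could be left out. A false discovery rate under 0.01 removed no peak. Requiring a fold enrichment of at least 2 moved the share of genes with 1 peak to 56.8% and the median fold enrichment to 5.78. Requiring at least 5 left 8604 peaks in 5950 genes, with 69.0% of genes at 1 peak, 0.286% at 6 or more, a median fold enrichment of 9.08 and a median exonic length of 331 nt, as the threshold itself removes weak peaks. It also put 9 of 31 gene lists below the all-gene share that had been above it, while a minimum of 2 moved none across but lowered the lipogenesis list from 77.3% to 50%. Merging overlapping peaks left 15304 peaks, counting genes by symbol left 8171 of 9020 genes, and the share of genes with 6 or more peaks was 1.08% after merging and 1.17% over protein-coding genes. The share of peaks near the gene start was 8.45% with a window of 100 nt and 13.5% with 500 nt, and 9.59% in genes of at least 5000 nt, which was added after the data were examined. An A in any of the 3 bases around the start was found in 53.9% of genes with a start peak, against 48.7% of genes with peaks elsewhere, 67.2% of genes without a peak and 61.7% over all. The depth behind the peaks is unknown.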

Other observations

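Transport and detoxification genes had peaks at shares between those of the regulators and of the ribosome. Of 385 solute carriers 183 had a peak (47.5%, against 36.6% of all protein-coding genes), with a median highest fold enrichment of 6.15. *Slc45a4*, *Slc26a1* and *Slc16a12* had 5 peaks each, reaching 22, 10.8 and 5.95, and *Slc10a4*, *Slc10a6* and *Slc12a1* had none. The peaks of *Slc26a1* also lay inside the span of *Idua*. Of 73 phase II conjugation enzymes 31 had a peak (42.5%), at a median of 4.64. The Wilson interval of that share, 31.8 to 53.9, includes the 36.6% of all protein-coding genes. *Ugt2b35* had 3 peaks of 4.67, 2.79 and 2 from 5´ to 3´, and *Ugt2b34* had 3 of 2.49, 2.17 and 1.73. *Gsta1*, *Gsta2* and *Gsta3* had none. The members of these enzyme families share near-identical sequence, so reads may be split between them.

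Iron genes had a peak in 13 of 18, at a median of 3.86. *Slc40a1*, the iron exporter ferroportin, had 3 peaks reaching 8.58, *Cp*, ceruloplasmin, had 3 reaching 6.37, and *Tfr2*, a sensor of iron-loaded transferrin, had 3 reaching 2.7, while *Ftl1*, *Trf* and *Tfrc* had none. The *Cp* peak of 6.37 also lay inside the span of *Hps3*, and the others of *Cp* had 3.22 and 2.33. Of 20 cytosolic aminoacyl-tRNA synthetases 11 had a peak, at a median of 3.14, with *Yars* reaching 9.6 in 3 peaks and *Eprs* 4.23 in 3. The Wilson interval of their share, 34.2 to 74.2, also includes the share of all protein-coding genes. *Aars* had 4 listed peaks, of which those of 15.5 and 4.66 lay in its span and those of 3.06 and 20.3 in the span of *Exosc6*. *Farsa*, *Farsb* and *Gars* had none.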
